A study of Mus musculus with 6 samples.

Results

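The genes described here cover the life of hemoglobin in tissue, from the globin chains to the clearance of heme and the passage of iron. They were chosen by symbol, as 10 of the 52550 gene identifiers listed for every library. The globins are Hba-a1, Hba-a2, Hbb-bs and Hbb-bt, listed as a sign of blood in the tissue. The clearance genes are Hp, Cd163, Hpx and Hmox1, and the iron transporters are Tfrc and Slc40a1. The data are RNA-seq of mouse hippocampus 24 h after surgery, with 3 sham mice (Sham1 to Sham3) and 3 mice with traumatic brain injury (TBI1 to TBI3), and 1 library per mouse. All were males of the breed labelled C57BL / 6, and no transgene or deletion is labelled. The TBI mice received a controlled cortical impact over the right parietal cortex through a craniotomy, and the sham mice had the same surgery without the impact. Sham is therefore an operated control and not an untouched brain, and the tissue was the whole hippocampus with every cell type and the blood in it.

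Hemoglobin is built from alpha and beta chains around heme, and its mRNA is made in red cell precursors and persists in young red cells. When red cells break down, haptoglobin (Hp) binds free hemoglobin, which macrophages take up through CD163, while hemopexin (Hpx) binds free heme. Heme oxygenase 1 (Hmox1) cleaves heme to biliverdin, carbon monoxide and iron, and is known to be induced by heme and by oxidative stress. Transferrin receptor (Tfrc) brings transferrin-bound iron into cells, and ferroportin (Slc40a1) is the exporter that returns iron to the extracellular space.

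The alpha chain is made from a pair of genes on chromosome 11, and the beta chain from a pair on chromosome 7, in GRCm38. Hba-a1 lies at chr11:32283511-32284465 and Hba-a2 at chr11:32296489-32297298, both on the plus strand. Hbb-bs lies at chr7:103826534-103828096 and Hbb-bt at chr7:103812524-103813996, both on the minus strand. The coding sequences of Hba-a1 and Hba-a2 are 429 bases long and differ at 1 base, C381T, counted from 1 at the first base of the start codon. Those of Hbb-bs and Hbb-bt are 444 bases long and differ at 1 base, C417T. Each pair is therefore 99.77% identical, and the stretch around the difference is shown because a read must cover that capital base to tell the copies apart within the coding sequence.
Hba-a1: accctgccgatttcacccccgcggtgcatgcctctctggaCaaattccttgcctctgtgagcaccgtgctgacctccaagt
Hba-a2: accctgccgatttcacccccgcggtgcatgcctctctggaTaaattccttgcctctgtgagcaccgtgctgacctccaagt
Hbb-bs: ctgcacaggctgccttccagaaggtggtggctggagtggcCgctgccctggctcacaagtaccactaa
Hbb-bt: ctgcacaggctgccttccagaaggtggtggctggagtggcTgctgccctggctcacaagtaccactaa

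Of the runs of 100 bases in the coding sequence, 85.15% were shared by the alpha copies and 91.88% by the beta copies. The split of counts between copies is therefore uncertain, and the sum of each pair is the safer value. The other 6 genes overlap no other annotated gene in GENCODE vM21, and the same holds for the globins.

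The sham and TBI groups overlapped for every one of the 10 genes, and no gene among them differed between the groups at the threshold of the study. Globin RNA was highest in TBI2 and Sham2 and lowest in TBI1, so the most and the least globin RNA were both found after TBI. Hmox1 was highest in a sham library, Sham2, and next highest in TBI1. The transferrin receptor was abundant and nearly even, ferroportin and Cd163 were low, and Hp and Hpx were near the limit of detection.

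The libraries themselves were not alike, and this bears on the fold changes below. Estimated counts summed to 31630936 to 41771872 per library over all genes, and 18795 genes passed the filter on low counts. Sham2 stood apart in several marker lists. Its oligodendrocyte genes summed to 3043 CPM (counts scaled to the size of their library) against 8887 to 10902 CPM in the other 5 libraries, and Gfap, the astrocyte filament gene, was at 4055 CPM in Sham2 against 541 to 1478 CPM elsewhere. The choroid plexus list summed to 66.6 CPM in Sham2, 244 CPM in TBI1 and 264 CPM in TBI3, against 2064 to 2409 CPM in Sham1, Sham3 and TBI2. TBI1 was low in dentate granule cell markers, with C1ql2 at 2.45 CPM against 39.6 to 86.0 CPM in the others. TBI1 was also highest in microglial genes, which summed to 664 CPM against 340 to 436 CPM in the others. The general neuronal gene Snap25 was at 1700 to 2221 CPM in every library, but of 12 hippocampal neuron markers 9 were lower in TBI. Their median on the log2 scale was -0.76, and 1 of them, lower in TBI, had an unadjusted p under 0.05 by edgeR. All 10 genes of the meninges and fibroblast list were lower in TBI. Their median was -0.26, and their lowest sum, 160 CPM, was in TBI1. The part of these shifts in the results was not tested, and whether the tissue taken differed for Sham2 or TBI1 cannot be told from these data.

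**Figure D1:**
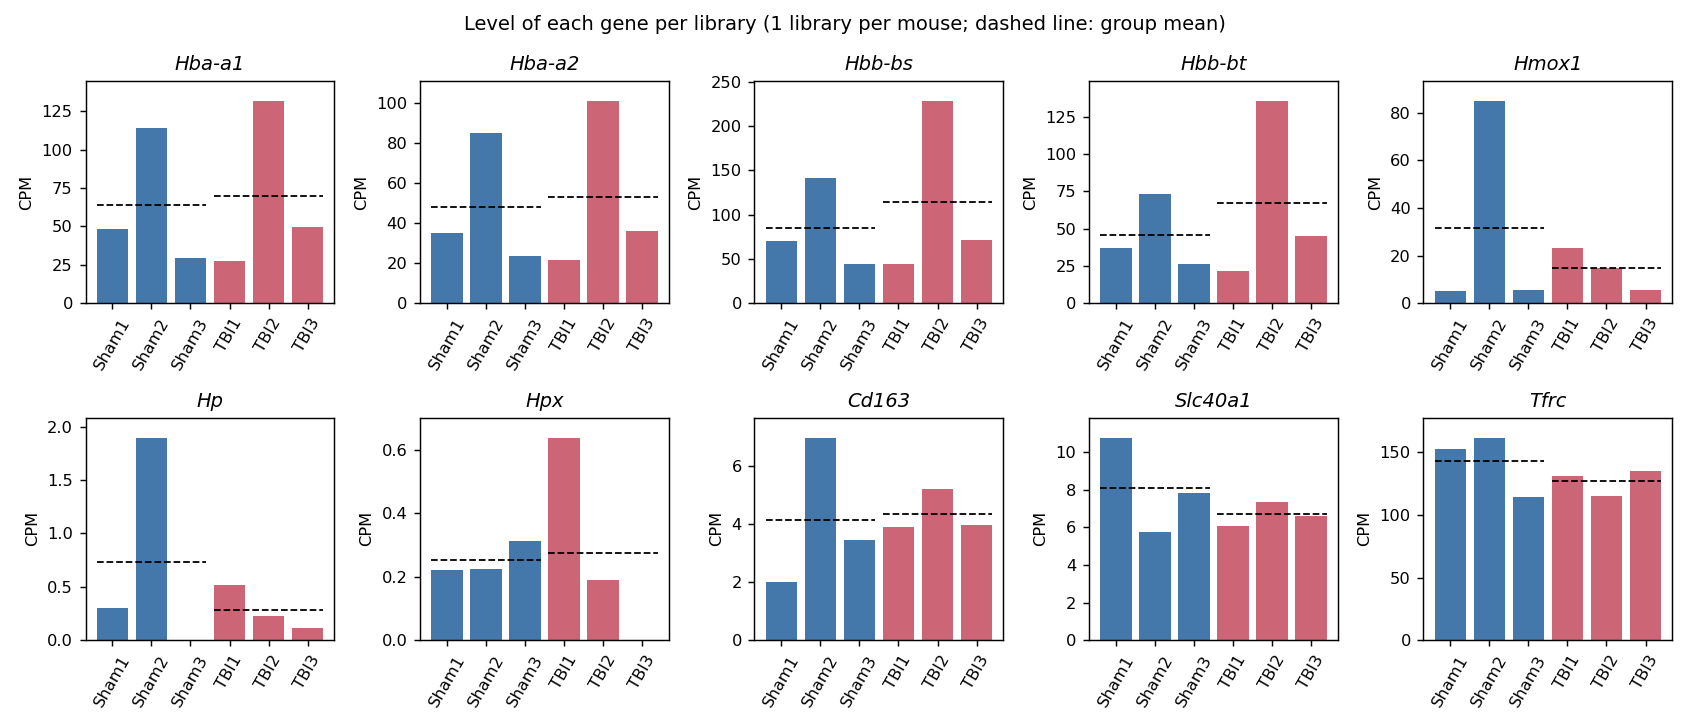
Level of each of the 10 genes in CPM (vertical axes from 0) in the 3 sham (blue) and 3 TBI (red) libraries, with a dashed line at each group mean. The 4 globins share 1 profile, with TBI2 and Sham2 highest, and Hmox1 reaches 84.8 CPM in Sham2 against 5.04 to 23.2 CPM elsewhere.

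Hba-a1, the more abundant alpha globin gene, had 1961, 4577 and 1136 counts in Sham1, Sham2 and Sham3 and 1138, 4158 and 1778 counts in TBI1, TBI2 and TBI3. Scaled to library size these were 48.4, 114 and 29.6 CPM in sham and 27.9, 131 and 49.96 CPM in TBI. The highest library was a TBI library, but TBI1 lay below every sham library. The log2 fold change of TBI over sham was 0.12 (SE 0.681, n = 3 per group), with a 95% interval of -1.51 to 1.75 and an adjusted p of 0.993 by edgeR's quasi-likelihood test with Benjamini-Hochberg adjustment.

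Hba-a2, its neighbour, was at 34.8, 84.9 and 23.6 CPM in sham and 21.5, 101 and 36.2 CPM in TBI. The order of the libraries was that of Hba-a1. Its log2 fold change was 0.14 (SE 0.678), with an interval of -1.48 to 1.76. Hba-a1 made up 55.7% to 58.2% of the alpha globin counts in all 6 libraries, a split that the shared sequence leaves uncertain.

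Hbb-bs, the larger beta globin gene, had 2833, 5678 and 1700 counts in sham and 1829, 7217 and 2537 counts in TBI. These were 70.0, 142 and 44.3 CPM in sham and 44.8, 228 and 71.3 CPM in TBI. TBI1 and Sham3 were level at the bottom, and TBI2 stood well above Sham2. This gave a log2 fold change of 0.43 (SE 0.677), with an interval of -1.19 to 2.05.

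Hbb-bt, the other beta globin gene, was at 36.9, 73.1 and 26.7 CPM in sham and 22.0, 135 and 44.9 CPM in TBI. Its log2 fold change was 0.56 (SE 0.687), with an interval of -1.08 to 2.21, and its adjusted p was 0.982. Hbb-bs held 61.4% to 67.0% of the beta globin counts. For all 4 globins the interval reached from a clear fall to a clear rise, and so the data bound the change only loosely.

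Summed over the 4 genes, globin RNA was at 190, 414 and 124 CPM in sham and 116, 596 and 202 CPM in TBI. This was 0.0114% to 0.0596% of all counts in a library. The sham mean was 243 ± 152 CPM and the TBI mean 305 ± 256 CPM, each with its SD over 3 libraries. On the log2 scale the groups differed by 0.17, with a p of 0.9 in a two-sided exact permutation test over the 6 libraries, which cannot give less than 0.1 with 3 against 3. The spread within each group was larger than the difference between them.

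The direction rested on single libraries. Without TBI2 the difference in summed globin RNA was -0.48, and without TBI1 it was 0.70. Without Sham2 the fitted log2 fold changes of the 4 globins were 0.84 to 1.08, with unadjusted p-values of 0.203 to 0.258 by edgeR. In bulk tissue, a change in the number of red cells or precursors cannot be told from a change in globin RNA per cell.

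The alpha and beta sums did not move in strict proportion. The alpha to beta ratio of CPM was 0.779, 0.927 and 0.749 in the sham libraries, against 0.738, 0.638 and 0.742 after TBI. The groups did not overlap in this ratio, although Sham3 and TBI3 were nearly level. The log2 difference was -0.21, with a p of 0.1 in the exact permutation test, the smallest it can give, and without Sham2 it was -0.12. Each sum alone overlapped between groups, with log2 differences of 0.055 for alpha (exact permutation p = 0.9) and 0.26 for beta (exact permutation p = 0.7).

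Blood cell markers were low and did not follow the globins throughout. Alas2, the erythroid enzyme that starts heme synthesis, was at 1.98, 2.62 and 1.75 CPM in sham and 0.784, 5.75 and 1.71 CPM in TBI, which put TBI2 and Sham2 on top and TBI1 at the bottom as for the globins. Its Pearson correlation with summed globin RNA was 0.899 over the 6 libraries, given as a description. Another defining gene of red cell precursors was near 0, as the band 3 gene Slc4a1 stayed at or below 0.899 CPM in every library. Of the 22 erythroid genes listed, 21 were in the files and 15 were tested, 11 higher and 4 lower, with a median log2 fold change of 0.14 against 0.0091 over all genes tested. At an unadjusted p under 0.05 by edgeR there were 0 higher and 1 lower gene of that list, against 4.29% of all genes. The summed level of that list was 1248 to 1493 CPM in sham and 1275 to 1395 CPM in TBI, but most of it came from genes that brain cells also use, such as Sptb and Car2.

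Among white cell markers, those of neutrophils and lymphocytes were likewise scarce, whereas the monocyte list summed higher. The 13 neutrophil genes summed to 7.31, 26.2 and 10.4 CPM in sham and 10.2, 16.2 and 8.82 CPM in TBI. Sham2 and TBI2 were again the highest, with S100a8 at 6.68 and 4.42 CPM against 0.396 to 2.58 CPM in the others. The monocyte list summed to 118 CPM in Sham2 and 48.6 to 70.6 CPM elsewhere. Ly6g was at 0 in 5 of 6 libraries. The lymphocyte list was highest in TBI3, at 3.15 CPM, and Sham3, at 2.27 CPM, against 2.09 CPM in TBI2 and 1.42 CPM in Sham2. The platelet list behaved differently, with its highest sum, 34.1 CPM, in TBI1, where globin RNA was lowest. Which part blood cells had in the globin levels was not tested.

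**Figure D2:**
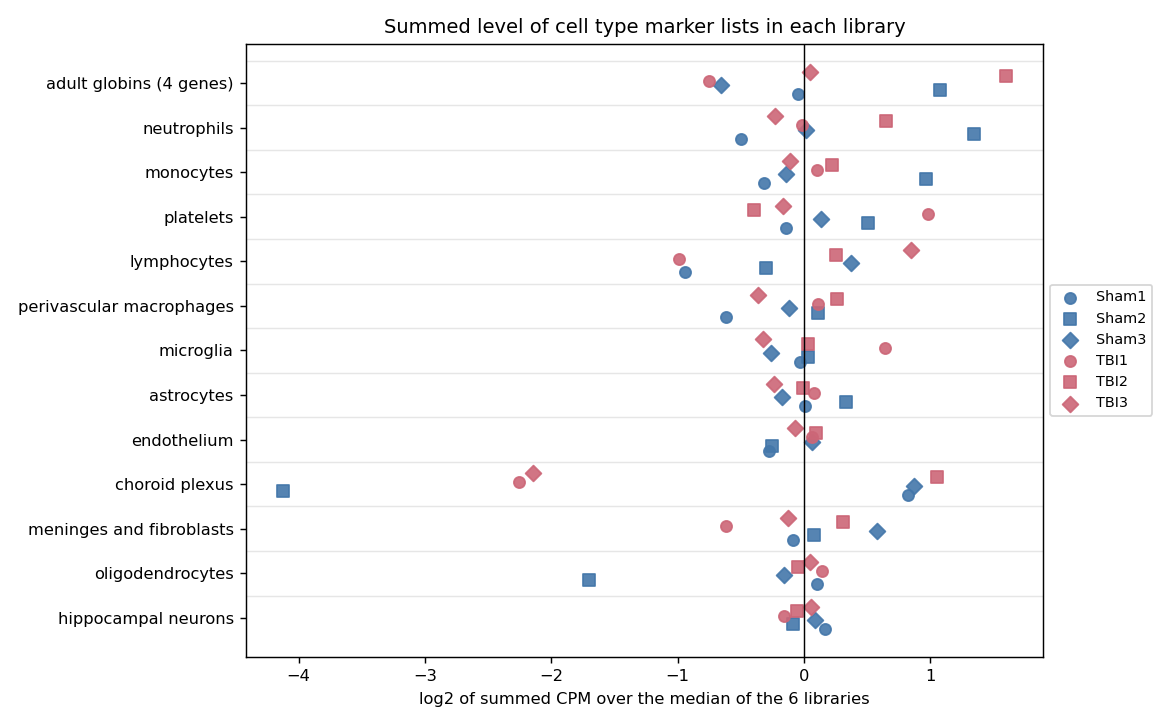
Summed CPM of the 4 adult globins and of 12 marker lists in each library, as the log2 of its ratio to the median of the 6 libraries (horizontal axis), with sham in blue and TBI in red and a symbol for each replicate number. Sham2 lies far to the left for choroid plexus and oligodendrocytes, and Sham2 and TBI2 lie to the right for globins, neutrophils and monocytes.

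The promoters of the globins share the elements known from globin genes. The 150 bases before the RefSeq start (GRCm38.p6) are printed for 1 alpha and 1 beta gene, since these genes ranked the libraries nearly alike. GENCODE vM21 places the start of Hbb-bs further upstream, at chr7:103828096, so its window lies inside the gene span given above. The Hba-a2 window ends just inside its own span. Capitals mark the CCAAT box, the CACCC box and the TATA box, the last searched as ATATAA. All were searched on both strands, and no matches overlap in the windows shown.
Hba-a2 (chr11:32296342-32296491, plus strand): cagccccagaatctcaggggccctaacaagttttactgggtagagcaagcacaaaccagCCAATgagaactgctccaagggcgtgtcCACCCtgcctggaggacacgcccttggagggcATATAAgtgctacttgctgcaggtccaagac
Hbb-bs (chr7:103827929-103828078, minus strand): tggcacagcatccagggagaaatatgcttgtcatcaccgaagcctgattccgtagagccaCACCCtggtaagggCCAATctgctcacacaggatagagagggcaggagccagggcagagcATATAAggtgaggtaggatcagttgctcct

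The 3 motifs were present together in all 4 globin promoters and in 0.423% of 32851 promoters of the same length. Alone, CCAAT was found in 24.5% of promoters, CACCC in 37.4% and ATATAA in 5.35%. Counted from the start, the first base of the CCAAT box lay at -91 in Hba-a2 and -76 in Hbb-bs, that of the CACCC box at -63 and -90, and that of the TATA box at -31 and -30. GATAA, searched on both strands as a site of the GATA factors, was in none of the 4 windows and in 13.3% of all promoters. These are matches of letters and were not tested for binding.

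Hmox1 (chr8:75093621-75100589), the inducible heme oxygenase, had the widest range in fold terms among the well measured members. It had 204, 3404 and 214 counts in Sham1, Sham2 and Sham3 and 949, 476 and 203 counts in TBI1, TBI2 and TBI3. These were 5.04, 84.8 and 5.57 CPM in sham and 23.2, 15.0 and 5.70 CPM in TBI. Sham1, Sham3 and TBI3 were level near 5 CPM, TBI2 and TBI1 were above them, and Sham2 was 14.9 times the median of the other 5 libraries.

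Over all 6 libraries the log2 fold change of Hmox1 was -1.12 (SE 1.15), with an interval of -3.86 to 1.63 and an adjusted p of 0.982 by edgeR. Without Sham2 it turned to 1.47 (SE 0.583), with an interval of 0.025 to 2.91, an unadjusted p of 0.0473 and an adjusted p of 0.997 by edgeR. In that comparison every TBI library lay above both sham libraries, TBI3 by a narrow margin. Without TBI1 it was -1.62, and without both Sham2 and TBI1 it was 0.97, with an unadjusted p of 0.0983 by edgeR. The sign of the Hmox1 difference was thus set by whether Sham2 was counted.

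Its constitutive relative Hmox2 did not share this pattern, with 72.7, 71.7 and 66.2 CPM in sham and 59.3, 79.7 and 65.6 CPM in TBI. Per length of exon, Hmox1 was 0.0877 to 0.107 of Hmox2 in Sham1 and Sham3, 0.110 in TBI3, 0.239 in TBI2, 0.496 in TBI1 and 1.50 in Sham2. Sham2 was the 1 library in which the inducible enzyme exceeded the constitutive one.

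Hmox1 and globin RNA did not rank the libraries alike. TBI2 had the most globin RNA, at 596 CPM, with Hmox1 at 15.0 CPM, whereas TBI1 had the least globin RNA, at 116 CPM, with Hmox1 at 23.2 CPM. Sham2 was first in Hmox1 and second in globin RNA. Sham1 and TBI3 were close to each other in both measures.

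**Figure D3:**
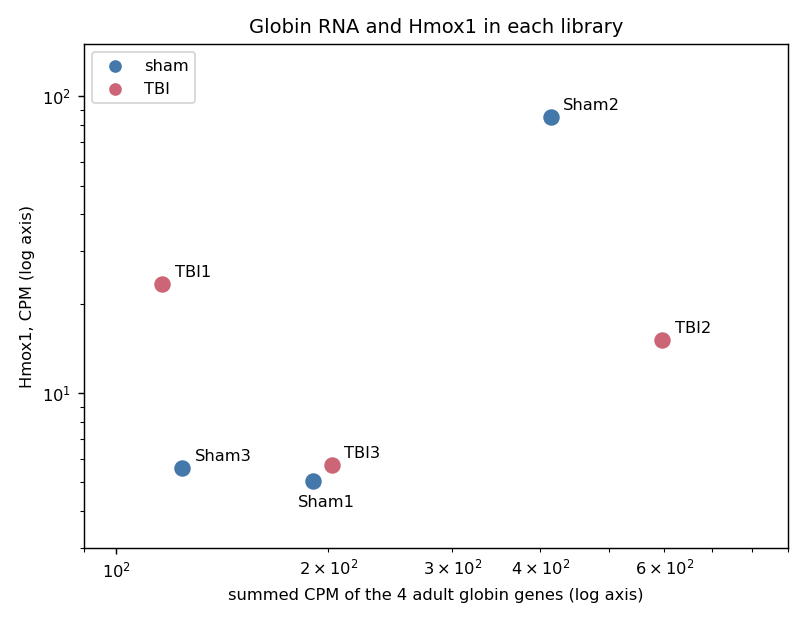
Summed CPM of the 4 adult globins (horizontal log axis) against Hmox1 CPM (vertical log axis), 1 point per library, with sham in blue and TBI in red. TBI1 is low in globin RNA and second in Hmox1, TBI2 is highest in globin RNA, and Sham2 is highest in Hmox1 and second in globin RNA.

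The genes most like Hmox1 across the 6 libraries included Plaur, Rhoj, Capg and Gm17669, with Pearson correlations of log2 CPM of 0.996 to 0.997, and all of these share the high Sham2 value. Plaur, the urokinase receptor gene, was at 0.864, 11.5 and 0.860 CPM in sham and 3.45, 2.31 and 1.12 CPM in TBI. Plaur repeated the order of Sham2, then TBI1, then TBI2. For summed globin RNA the most like genes outside the members included Elmsan1, Rpl15-ps3, Fbxl7 and Mob4, with correlations of 0.981 to 0.990. Elmsan1 ranged from 28.7 to 38.7 CPM and Fbxl7 from 0.392 to 1.42 CPM, against 116 to 596 CPM for globin RNA.

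Hp (chr8:109575128-109579172), which encodes the hemoglobin-binding plasma protein haptoglobin, had 12, 76 and 0 counts in sham and 21, 7 and 4 counts in TBI. Sham2 held more counts than the other 5 libraries together. The log2 fold change was -1.35 (SE 1.43), with an interval of -4.78 to 2.08, and without Sham2 it was 0.92. No direction can be read from so few counts.

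Hpx (chr7:105591613-105600137), the gene of the heme-binding protein hemopexin, had 9, 9 and 12 counts in sham and 26, 6 and 0 counts in TBI. It was the 1 member that did not pass the filter on low counts, so it was not tested with the others. With a filter of at least 1 count in any library its log2 fold change was 0.14, with an unadjusted p of 0.915 by edgeR. The TBI group held both its highest and its lowest library.

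Cd163 (chr6:124304656-124330527), the macrophage receptor for haptoglobin bound to hemoglobin, was at 2.0, 6.98 and 3.46 CPM in sham and 3.92, 5.21 and 3.96 CPM in TBI. Sham1 was lowest and Sham2 highest, so the sham group enclosed the TBI group. A log2 fold change of 0.073 (SE 0.465) resulted, with an interval of -1.04 to 1.18, and without Sham2 it was 0.67 with an unadjusted p of 0.106 by edgeR. Its sign turned without Sham1 (-0.25), without Sham3 (-0.043) and without TBI2 (-0.076). It stayed positive without TBI1 (0.14) and without TBI3 (0.14). The list of perivascular macrophage genes summed to 27.9, 46.1 and 39.4 CPM in sham and 46.0, 51.2 and 33.2 CPM in TBI, lowest in Sham1 as Cd163 was. All 11 genes of that list were tested, 9 higher and 2 lower, and none at an unadjusted p under 0.05 by edgeR.

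Tfrc (chr16:32608920-32632794), the transferrin receptor gene, was the steadiest of the 10. It was at 152, 162 and 114 CPM in sham and 131, 116 and 135 CPM in TBI. The TBI libraries lay inside the sham range. The log2 fold change was -0.17 (SE 0.159), with an interval of -0.54 to 0.21, the narrowest here.

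The Tfrc mRNA carries stem loops that iron regulatory proteins bind, a textbook case of control of mRNA stability by iron. A search for the iron responsive element found 4 sites in the transcript Tfrc-201, which start 884 to 1375 bases past the end of the coding sequence. The loop CAGTGN is in capitals, and the flanking bases pair with each other around it.
Tfrc site 1: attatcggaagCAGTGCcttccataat
Tfrc site 2: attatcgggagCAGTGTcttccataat
Tfrc site 3: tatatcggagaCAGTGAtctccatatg
Tfrc site 4: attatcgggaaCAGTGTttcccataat

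The same search found a site in 35 of 55341 genes (0.0632%), read on the transcript strand only. Slc40a1, Alas2 and the ferritin genes Fth1 and Ftl1 were among these 35, while the globins, Hmox1, Hp, Hpx and Cd163 were not. Slc11a2, known for such an element in some of its transcripts, was not found either, so the search misses sites. The match is a description of the sequence, and RNA-seq counts do not measure the binding of these proteins or translation.

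Slc40a1 (chr1:45908068-45926523), the iron exporter gene, was at 10.8, 5.76 and 7.81 CPM in sham and 6.08, 7.36 and 6.63 CPM in TBI. Sham2 was the lowest library and Sham1 the highest. Between groups the log2 fold change was -0.28 (SE 0.273), with an interval of -0.93 to 0.37. Without Sham2 both remaining sham libraries lay above the TBI libraries, and the log2 fold change was -0.47 with an unadjusted p of 0.0906 by edgeR. Without Sham1, the highest library, it was -0.016, with an unadjusted p of 0.952 by edgeR.

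The ratio of Tfrc to Slc40a1, uptake against export, does not depend on the scaling of a library. It was 14.2, 28.1 and 14.6 in the sham libraries, against 21.6, 15.7 and 20.4 after TBI. The log2 difference was 0.083, with a p of 0.8 in the exact permutation test. Sham1 and Sham3 had the lowest ratios and Sham2 the highest, which again placed the widest gap inside the sham group.

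As RPKM, the CPM divided by the exon length in kilobases, the mean over the 6 libraries was 130 for Hbb-bs, 82.4 for Hba-a1, 80.4 for Hbb-bt and 75.4 for Hba-a2. Tfrc followed at 21.8 and Hmox1 at 13.3, then Slc40a1 at 0.822, Cd163 at 0.779, Hp at 0.315 and Hpx at 0.176. Hbb-bs exceeded Hba-a1 in 6 of 6 libraries, but Hba-a1 exceeded Hbb-bt in only 3 of 6 and Hbb-bt exceeded Hba-a2 in 4 of 6. Tfrc exceeded Hmox1 in 5 of 6, with Sham2 the exception. Slc40a1 and Cd163 each led in 3 of 6, and Hp exceeded Hpx in 4 of 6, so neither pair can be ranked by RPKM. For Slc40a1 the exon length is 9000 bases over all its annotated transcripts, and a shorter length would raise its RPKM. In CPM its mean was 7.40 against 4.26 for Cd163.

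The thresholds were those of the study: an unadjusted p of 0.05, an adjusted p of 0.1, and a change of more than 1.5-fold in either direction. By edgeR's quasi-likelihood test 0 of the 9 tested members were called, against 0 of all 18795 genes (0%), and 0 of the 10 by DESeq2 with its defaults, against 46 of 28118 genes (0.164%). At an unadjusted p under 0.05 by edgeR there were 0 members, against 806 genes, or 4.29%. Leaving out 1 library moved that count of genes from 483, without Sham1, to 1130, without TBI2. No member had groups that did not overlap, against 10.2% of all genes tested. These counts do not set the 9 members apart from the background.

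Without Sham2, Hmox1 was the 1 of 10 members at an unadjusted p under 0.05 by edgeR, against 3.39% of all genes. Hmox1, Cd163 and Slc40a1 then had groups that did not overlap, 3 of 10 against 20.4% of all genes in this comparison of 2 sham with 3 TBI libraries. Without Sham2 and TBI1 together, 8 members were tested and Hbb-bt alone had an unadjusted p under 0.05, at 0.0343 by edgeR with a log2 fold change of 1.50, against 5.02% of all genes. With 2 libraries a group, 7 of these 8 did not overlap, all but Tfrc, against 37.1% of all genes. Leaving out both libraries was a choice made after the data had been seen.

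**Figure D4:**
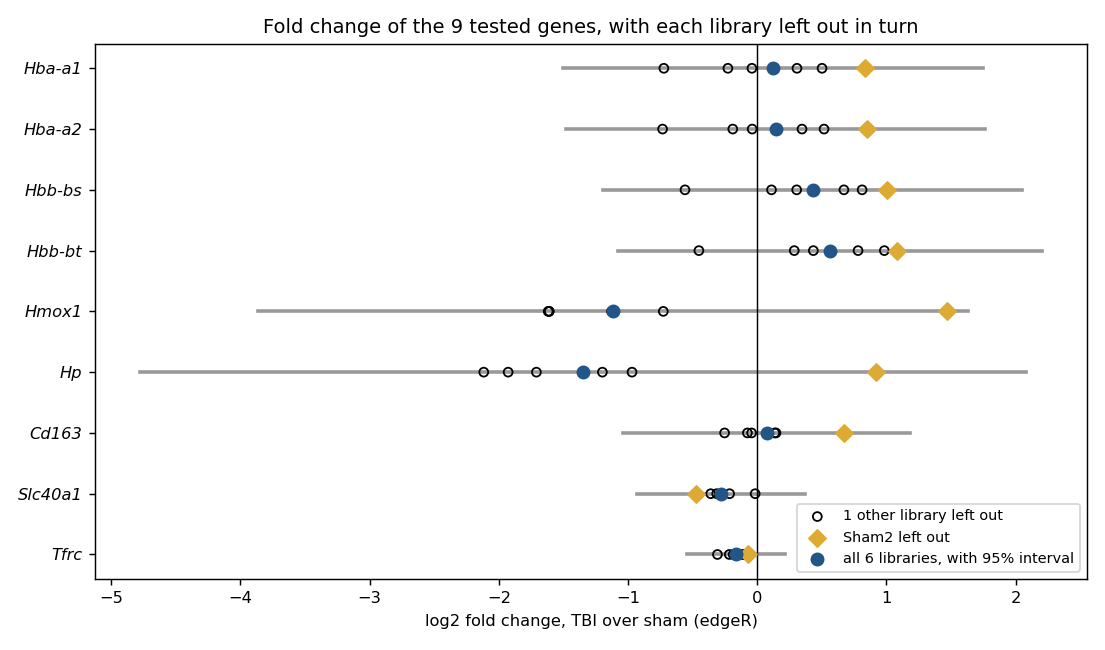
Log2 fold change of TBI over sham (horizontal axis) of the 9 tested genes with all 6 libraries (blue points, grey bars for the 95% interval) and with each library left out in turn (open circles, gold diamonds for Sham2). Every grey bar crosses 0, and leaving out Sham2 moves Hmox1 from -1.12 to 1.47 and Hp from -1.35 to 0.92.

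The rest of the heme and iron pathway was close to even between groups. Of 99 other genes listed, 98 were in the files and 81 were tested. Of these, 47 were higher and 34 lower, with a median log2 fold change of 0.040 against 0.0091 over all genes tested. At an unadjusted p under 0.05 there was 1 higher and 1 lower gene, and 0 were called. The groups did not overlap for 5 of the 81, against 10.2% of all genes: Trf, Mkrn1, Flvcr1 and Slc39a8 were above in TBI, and 1 gene was below. Mkrn1, Flvcr1 and Slc39a8 were named after their values were seen, with log2 fold changes of 0.23, 0.35 and 0.33.

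The higher gene was Trf, which encodes transferrin, the plasma carrier that Tfrc takes up. It was at 238, 228 and 235 CPM in sham and 463, 270 and 307 CPM in TBI, so every TBI library lay above every sham library and TBI1 stood highest. The log2 fold change was 0.57 (SE 0.207), with an unadjusted p of 0.0301 and an adjusted p of 0.982 by edgeR, and without Sham2 it was 0.55 (SE 0.248), with an unadjusted p of 0.0700. Without Sham2 and TBI1 together it was 0.29, with an unadjusted p of 0.0527 by edgeR. Of the 8 oligodendrocyte markers 7 were higher in TBI, with a median of 0.34. Their sum was highest in TBI1, at 10902 CPM, where Trf was highest too. It was lowest in Sham2, at 3043 CPM, where Trf was level with the other sham libraries. The part of oligodendrocyte RNA in the Trf levels was not tested.

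Heme synthesis was even. All 12 genes were tested, 8 higher and 4 lower, with a median log2 fold change of 0.043 and 0 at an unadjusted p under 0.05 by edgeR. The most abundant were Cpox and Fech, 2 late enzymes of the pathway, and the mitochondrial protein gene Tmem14c, with log2 fold changes of -0.090, 0.020 and 0.049. Without Sham2 these were -0.15, -0.080 and 0.16. Of the 10 other globin genes 4 were tested, with a median of 0.26, which became 1.21 without Sham3. Cytoglobin (Cygb) was at 63.4 to 76.3 CPM in sham and 73.4 to 98.6 CPM in TBI, and neuroglobin (Ngb) was at 0.988 to 7.95 CPM in sham and 4.39 to 5.34 CPM in TBI. Hba-x, Hbb-bh0, Hbb-bh1 and Hbb-bh2, named after their values were seen, were at 0 in every library.

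Among the 16 genes of heme transport and breakdown beside Hmox1, all tested, 7 were higher and 9 lower, with a median of -0.040. The hemopexin receptor gene Lrp1 was at 431, 492 and 417 CPM in sham and 567, 465 and 494 CPM in TBI, with a log2 fold change of 0.19. Bach1, which encodes the heme-sensing repressor of Hmox1, was at 15.4, 43.9 and 17.6 CPM in sham and 22.7, 16.7 and 15.2 CPM in TBI, so it was highest in Sham2 together with Hmox1. Nfe2l2, which encodes the activator NRF2, ranged only from 15.1 to 24.1 CPM. The other abundant genes were Pgrmc1, at 234 to 297 CPM, and the heme transporter gene Slc48a1, lowest in Sham2 at 104 CPM against 158 to 176 CPM elsewhere.

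Iron uptake had 14 genes tested beside Tfrc, 5 higher and 9 lower, with a median of -0.18. Tfrc aside, its most abundant genes were Slc22a17, Trf and Slc11a2. Slc22a17, the lipocalin receptor gene, was at 485 to 622 CPM and Slc11a2, the divalent metal transporter gene, at 39.4 to 56.0 CPM. Another 3 genes are named after their values were seen. Lcn2, which encodes an iron-chelator carrier made in inflammation, was at 0.173, 15.3 and 0.469 CPM in sham and 6.71, 8.22 and 1.35 CPM in TBI. The metal importer gene Slc39a14 was at 85.6 CPM in Sham2 against 27.6 to 33.8 CPM elsewhere, and Slc11a1, a phagosomal transporter gene, was at 0.963, 7.63 and 1.15 CPM in sham and 5.73, 2.37 and 1.99 CPM in TBI.

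These 3 genes had their maximum in Sham2, as Hmox1 had. Over all libraries the log2 fold change of Lcn2 was 0.027 (SE 1.49) and that of Slc11a1 was 0.054 (SE 0.878). Without Sham2 they were 4.07, with an unadjusted p of 0.00661, and 1.67, with an unadjusted p of 0.0287, and both had an adjusted p of 0.997 by edgeR. Slc39a14 was at 0.14 without Sham2, with an unadjusted p of 0.374 by edgeR. In that fit 3.39% of all genes had an unadjusted p under 0.05. Because the 3 genes were named after their values were seen, these p-values cannot serve as a test.

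Iron storage and regulation had 13 of 14 genes tested, 8 higher and 5 lower, with a median of 0.076. Fth1, the ferritin heavy chain gene, was the most abundant gene of the pathway, at 3325, 2129 and 2515 CPM in sham and 2896, 3041 and 2793 CPM in TBI, with a log2 fold change of 0.13. Ftl1, the light chain gene, was at 278 to 380 CPM over the 6 libraries, with a log2 fold change of 0.076. The iron chaperone gene Pcbp1 was at 180 to 198 CPM, with a log2 fold change of -0.060. The ferritins thus varied far less than Hmox1, and Fth1 was lowest in Sham2, where Hmox1 was highest. Without Sham2 the log2 fold changes were -0.0057 for Fth1 and 0.21 for Ftl1.

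Iron export and the hepcidin axis had 10 of 14 genes tested beside Slc40a1, 8 higher and 2 lower, with a median of 0.14. Cp, which encodes the ferroxidase ceruloplasmin that works beside ferroportin, was at 10.9, 32.1 and 16.5 CPM in sham and 15.3, 24.8 and 15.5 CPM in TBI. Hamp, the gene of the hormone hepcidin that removes ferroportin from the membrane, was at 0 counts in all 6 libraries. The most abundant genes were Neo1, at 91.1 to 98.7 CPM, Smad7, at 27.9 to 43.7 CPM, and Id1, at 14.4 to 29.6 CPM. None of these genes separated the groups at an adjusted p under 0.1.

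**Figure D5:**
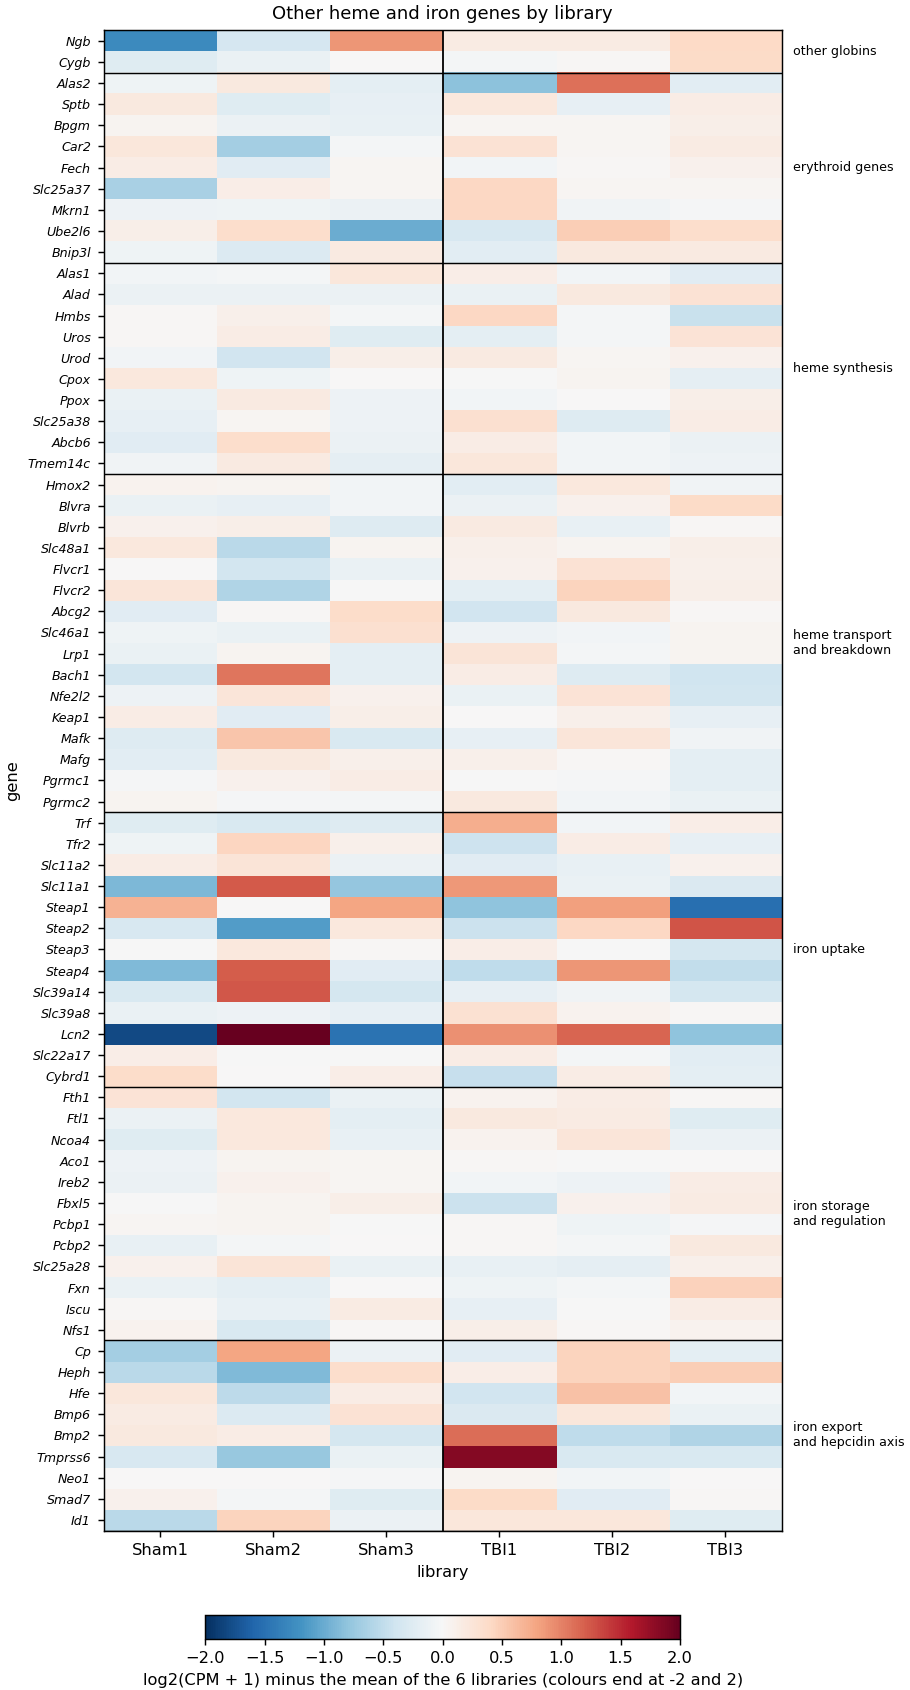
Log2(CPM + 1) of 71 other heme and iron genes with a mean of at least 1 CPM, minus the mean of the 6 libraries, by library (columns) and gene (rows, by list), with red for higher and blue for lower. Most rows are pale, deep red stands in Sham2 for Lcn2, Slc39a14, Slc11a1 and Bach1 and in TBI1 for Tmprss6, and no block of colour parts sham from TBI.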

How the data were processed

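RNA-seq libraries were made from total RNA of the hippocampus of 3 sham and 3 TBI mice, and groups were taken from the sample labels. After FastQC, the authors used HISAT2 for alignment to GRCm38, StringTie for quantification and DESeq2 for testing. The versions of FastQC, HISAT2 and StringTie, the annotation release, strandedness and how StringTie coverage became counts are not given in the sources used here. What the authors deposited is 1 estimated count per gene and library, a whole number with no normalization. Low values pile up at multiples of 4 and just above them. There were 5109 values of 4 and 3577 of 5 against 2325 of 3, and 2563 of 8 and 1732 of 9 against 1155 of 7. The counts are therefore not reads, and no counting interval is given. All deposited identifiers were matched by Ensembl number to GENCODE vM21, and 147 had no symbol. Trf and Hfe2 are the names there of Tf and Hjv, and Ahsp was not matched.

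In R 4.3.3, edgeR 4.0.16 was used with filterByExpr by group, TMM scaling, the quasi-likelihood test and Benjamini-Hochberg adjustment over all genes tested, after a check on simulated counts. Standard errors come from the fold change and the F statistic. CPM uses TMM library sizes, RPKM adds the exonic length of all transcripts, and correlations use log2 CPM with a prior count of 2. Sums and ratios were compared by two-sided exact permutation over libraries. Separate mice give the replicates. Promoters came from RefSeq (GRCm38.p6), with Hba-a1, Hba-a2, Hbb-bs, Hbb-bt and 32851 promoters in all. An iron responsive element was a CAGTG loop followed by A, C or T and closed by 5 pairs, with an unpaired C before them and at least 4 of 5 pairs below.

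The members and lists were chosen with earlier results of these data known. Named genes were all 10 members, in each list of other heme and iron genes those at an unadjusted p under 0.05, the 3 most abundant and set partners (Hmox2, Lrp1, Bach1, Nfe2l2, Cp, Fth1, Ftl1, Trf, Hamp, Alas2), up to 3 genes of a cell type list, and the 5 genes most like globin RNA and Hmox1. Alternatives were DESeq2 1.42.0, other scalings and filters, counts divided by 4, robust dispersions, each library left out and a replicate block. Leaving out Sham2 and TBI1 together was added after seeing the data. Some genes that this rule selects are not reported here.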

Additional observations from a re-analysis of the deposited data

How the results depend on the processing

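With 3 mice a group the calls and most directions rest on few libraries. DESeq2 with its defaults called 46 genes and DESeq2 without independent filtering 43, none of them a member, against 0 by edgeR. Leaving out each library in turn gave 0 to 1 called genes, 0 to 1 members at an unadjusted p under 0.05 and 0 to 3 members whose groups did not overlap. Over all genes, 483 to 1130 had an unadjusted p under 0.05 by edgeR in those fits, and 3392 to 4390 did not overlap. The log2 differences ranged over those fits from -0.72 to 0.84 for Hba-a1, -0.73 to 0.85 for Hba-a2, -0.56 to 1.005 for Hbb-bs and -0.45 to 1.08 for Hbb-bt. They ranged from -0.48 to 0.70 for summed globin RNA, -0.56 to 0.58 for alpha and -0.42 to 0.80 for beta globin. They ranged from -1.62 to 1.47 for Hmox1, -2.12 to 0.92 for Hp, -0.25 to 0.67 for Cd163 and -0.090 to 0.40 for the Tfrc to Slc40a1 ratio. Slc40a1 (-0.47 to -0.016) and Tfrc (-0.31 to -0.068) stayed negative, as did the alpha to beta ratio (-0.27 to -0.12). List medians, with Hmox1, Tfrc and Slc40a1 counted in their lists, ranged from 0.066 to 0.18 for erythroid genes, 0.16 to 1.21 for other globins, -0.0045 to 0.15 for heme synthesis, -0.085 to 0.023 for heme transport and breakdown, -0.35 to -0.024 for iron uptake, 0.023 to 0.067 for iron storage and regulation and 0.025 to 0.24 for iron export. Without Sham2 and TBI1 together there were 3 called genes. In that setting 1 of 8 members had an unadjusted p under 0.05 by edgeR, against 5.02% of all genes. Of the 8, 7 did not overlap, against 37.1% of all genes, and the 4 globins among them share 1 profile. Hmox1 was at 0.97, summed globin RNA at 1.18 and the 4 globins at 1.22 to 1.50. The medians were 0.016 for erythroid genes, -0.027 for iron export and -0.016 for iron uptake. The erythroid median was 0.27 under DESeq2's defaults and 0.27 with a filter of at least 1 count. Whether the replicate numbers pair the mice is not labelled and cannot be told from 3 libraries a group. Deviations of same-numbered libraries correlated at -0.0996, -0.065 and 0.15, and those of different-numbered libraries at -0.18 to 0.21. With the replicate block, calls by edgeR stayed at 0, genes at an unadjusted p under 0.05 went from 806 to 723, Hmox1 moved from -1.12 to -0.074 and Hp from -1.35 to -0.068, the globins were at 0.058 (Hba-a1), 0.059 (Hba-a2), 0.25 (Hbb-bs) and 0.31 (Hbb-bt), Cd163 was at 0.24, and the median of other globins was 0.48. The causes of these shifts were not tested. Library totals, upper quartile scaling, a stricter filter, counts divided by 4 and robust dispersions reversed no member. Hp and Hpx could not be fitted where a filter removed them.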
